A study of Mus musculus with 2 samples.

Results

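The Zscan4 family of the mouse was followed through 5 genes, Zscan4a, Zscan4b, Zscan4c, Zscan4d and Zscan4f, out of 22421 genes with a value. They were found as the listed RefSeq transcripts that carry these symbols, 1 transcript per gene, and they were selected on their measured values, since an earlier look at the same files had shown them far higher after Set1a knockdown. Their fold is therefore a description of these libraries. RNA came from CGR8 cells, a mouse embryonic stem cell line grown without feeder cells on gelatin in serum with leukaemia inhibitory factor. In the control group the cells had received a negative siRNA and in the knockdown group an siRNA against Set1a, each with 72 hours given as the transfection time. Each group was 1 RNA-seq library, so differences have no replicate check and no p-value. No other genotype or treatment is named in the labels.

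Zscan4 genes encode nuclear proteins with an N-terminal SCAN domain, which pairs such proteins with each other, and C-terminal zinc fingers, which contact DNA. They are transcribed in the mouse embryo at the 2-cell stage, when the embryonic genome is first read, and then fall silent. In embryonic stem cell cultures they appear transiently in a small fraction of cells, where they are known for lengthening telomeres and for marking a state related to the 2-cell embryo. Zscan4d is known as the main copy of the embryo and Zscan4c as the main copy of embryonic stem cells. The target of the siRNA, Set1a (symbol Setd1a), is the gene of an enzyme that methylates lysine 4 of histone H3, and complexes of this kind are known to be drawn to DNA rich in CG dinucleotides.

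The copies lie in a cluster on chromosome 7 and resemble each other closely before the gene as well as within it. Promoter sequences of 4 of the 5 genes were taken from RefSeq (GRCm38.p6), and Zscan4a was not in that table. The 150 bases that end with the TATAAA element of each gene are shown because they could be laid over each other without a gap. Capitals mark the 12 positions at which the 4 genes are not all the same.
Zscan4b (- strand, chr7:10905076-10905225): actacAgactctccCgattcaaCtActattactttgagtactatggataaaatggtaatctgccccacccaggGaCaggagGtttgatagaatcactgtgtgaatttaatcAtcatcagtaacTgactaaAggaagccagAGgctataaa
Zscan4c (+ strand, chr7:11005547-11005696): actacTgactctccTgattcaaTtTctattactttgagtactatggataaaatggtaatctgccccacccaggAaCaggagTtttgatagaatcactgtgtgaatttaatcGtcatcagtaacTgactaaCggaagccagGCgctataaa
Zscan4d (- strand, chr7:11166208-11166357): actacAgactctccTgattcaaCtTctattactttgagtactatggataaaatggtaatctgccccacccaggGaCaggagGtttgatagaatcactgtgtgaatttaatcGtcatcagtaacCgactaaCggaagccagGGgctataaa
Zscan4f (+ strand, chr7:11397740-11397889): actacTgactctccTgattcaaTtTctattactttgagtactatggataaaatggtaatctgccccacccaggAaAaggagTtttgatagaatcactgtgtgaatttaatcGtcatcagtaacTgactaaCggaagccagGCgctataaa
At the other 138 positions all 4 genes had the same base, including a run of 48 bases. Zscan4c and Zscan4f differed at 1 position of 150, and the most distant pair, Zscan4b and Zscan4f, at 11. TATAAA, the usual core of a TATA box, occurred once in the 250 bases before each of the 4 starts, against 7.59% of all 32851 promoter windows of that length on the gene's strand and 12.4% on either strand. The reverse complement, TTTATA, was found in none of the 4. The element began 31 bases before the annotated start of Zscan4b and Zscan4f, 54 before that of Zscan4c and 65 before that of Zscan4d, so the annotated starts of these near-identical promoters are not aligned. The 4 promoters held few CG dinucleotides. Zscan4b had 1 and the others had 3 in 250 bases, against a median of 6 over all windows, and 37.8% of all windows had 3 or fewer. These matches describe the sequence and were not tested as sites.

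The transcripts were alike to a degree that limits what each value can say. Zscan4c, Zscan4d and Zscan4f each have an open reading frame of 1518 nucleotides, or 506 codons without the stop, in GENCODE M21, and Zscan4b has 1515. Zscan4a is annotated in RefSeq as a transcribed pseudogene. Zscan4c and Zscan4f differed at 6 of 1518 coding bases and were 99.6% identical over the aligned transcripts. Zscan4b and Zscan4d were the least alike pair, at 96.8%. Among Zscan4c, Zscan4d and Zscan4f, 38 coding positions varied, and the 90 bases with the most of them, coding bases 676 to 765, held 8. This stretch is shown because its 8 variable positions, in capitals, set Zscan4d apart from the other two. Zscan4a and Zscan4b were not compared there.
Zscan4d: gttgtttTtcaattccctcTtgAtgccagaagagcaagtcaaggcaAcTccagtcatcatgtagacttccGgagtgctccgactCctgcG
Zscan4f: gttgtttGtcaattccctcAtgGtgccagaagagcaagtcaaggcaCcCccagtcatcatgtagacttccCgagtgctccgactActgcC
Zscan4c had the same letters as Zscan4f throughout this stretch. The read length is not given in the sources used here, so 50-base and 100-base windows were compared with all annotated transcripts of 9 Zscan4 symbols. Zscan4d was the most separable, as 50.4% of its 50-base windows were in no other Zscan4 gene. The share was 36.4% for Zscan4a, 14.5% for Zscan4c, 7.51% for Zscan4b and 4.66% for Zscan4f. With 100-base windows it was 70.4% for Zscan4d, 60.9% for Zscan4a, 27.2% for Zscan4c, 21.4% for Zscan4b and 10.5% for Zscan4f. With reads of 50 bases, the values of Zscan4f, Zscan4b, Zscan4c and Zscan4a would thus rest mostly on windows that other copies share. With reads of 100 bases this would hold for Zscan4f, Zscan4b and Zscan4c but not for Zscan4a. The rule by which shared reads were counted is not given in the sources used here.

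The values are RPKM, reads scaled by transcript length and by the depth of the library, so they can be compared between genes. About 6655000 reads in the control library and 6405000 in the knockdown library were recovered from the steps that single reads make in low values. Setd1a was at 14.2 RPKM in the control library and 11.97 RPKM in the knockdown library, a ratio of 0.846. Its counting interval was 0.746 to 0.959, so the targeted gene was lower by a modest amount beyond counting error. Ordered from highest to lowest log2 fold, Setd1a, at -0.225, took place 10015 of 11786, so many genes were lower by more. Whether the siRNA caused the lower value was not tested. All 6 embryonic stem cell markers on the list were well expressed, from 79.5 RPKM for Klf4 to 745 RPKM for Pou5f1 in the control library. Their median log2 fold was 0.0023, with 3 above and 3 below their control value. Sox2 lay farthest from 0, at -0.19, with a ratio of 0.875 (0.835 to 0.917). Of 14 markers of germ layers, extraembryonic lineages and fibroblasts, none exceeded 3.77 RPKM in either library, 5 were listed at 0 in each library, among them Cdx2 and Postn, and the list's summed level was 5.47 RPKM in the control library and 7.82 RPKM in the knockdown library. Their part in the Zscan4 values was not tested.

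All 5 Zscan4 copies were low in the control library and higher in the knockdown library. Zscan4f was at 2.22 RPKM in the control library and 41.2 RPKM in the knockdown library. Zscan4c was at 1.98 and 32.2 RPKM in the same order. These 2 copies, the most alike in sequence, were the highest in each library. Zscan4a was at 1.26 and 24.2 RPKM. Zscan4d was at 1.13 and 24.2 RPKM. Zscan4b was at 1.11 and 25.8 RPKM. The ranges did not overlap: the lowest value among the copies after knockdown, 24.2 RPKM, stood above the highest in the control, 2.22 RPKM. With 1 library a group and members chosen for this difference, that separation is no sign of stability.

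**Figure D1:**
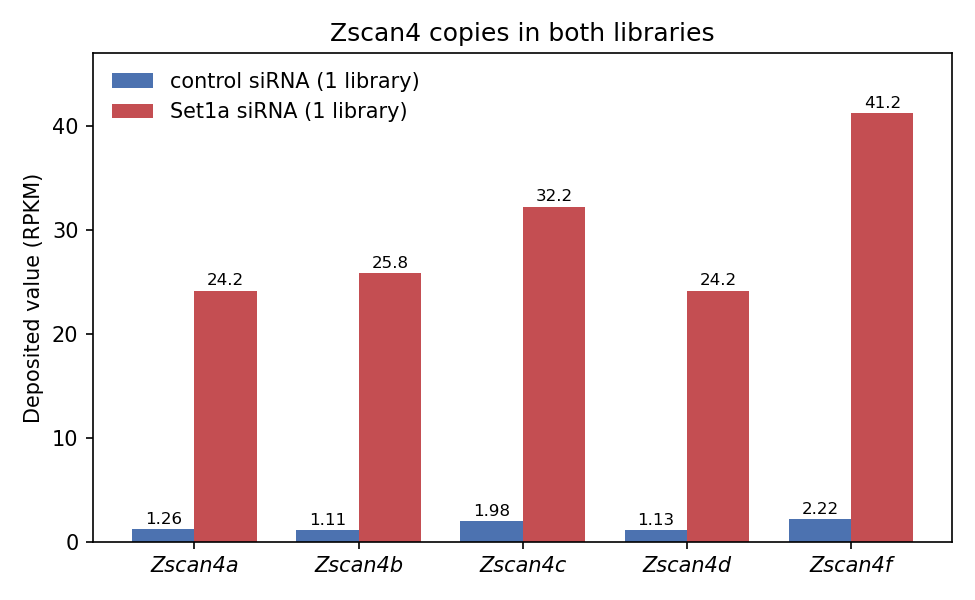
Deposited values (RPKM, vertical axis) of the 5 Zscan4 genes with control siRNA and with Set1a siRNA (knockdown), 1 library each. Control bars lie between 1.11 and 2.22 RPKM and knockdown bars between 24.2 and 41.2 RPKM.

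Relative to other genes, the copies lay in the middle of the distribution in the control and in its upper part after knockdown. In the control library, 48.7% of all 22421 genes lay below Zscan4b and 54.7% below Zscan4f. In the knockdown library, 88.7% lay below Zscan4a and 93.7% below Zscan4f. The control values rest on few reads, 13 for Zscan4b, 17 for Zscan4d, 19 for Zscan4a, 27 for Zscan4f and 30 for Zscan4c. In the knockdown library the same genes had 290, 352, 353, 483 and 470 reads. Reads were thus listed at every copy in the control, at a level where counting error is wide, and a read listed at a copy need not come from it.

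The fold of each copy is given as the ratio of its RPKM, Set1a siRNA over control siRNA, with an exact Clopper-Pearson 95% interval from the recovered reads, which covers counting error only. The ratio was 23.2 for Zscan4b (13.3 to 44.1) and 21.4 for Zscan4d (13.2 to 37.4). It was 19.1 for Zscan4a (12.2 to 32.4), 18.6 for Zscan4f (12.6 to 28.5) and 16.3 for Zscan4c (11.3 to 24.4). The highest ratio was 1.43 times the lowest, and each interval held the ratios of all the other copies. Zscan4d, which shares the least sequence with other copies, and Zscan4f, which shares the most, thus had ratios inside each other's intervals. Reads may have been counted at several copies, so these 5 ratios are not independent.

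**Figure D2:**
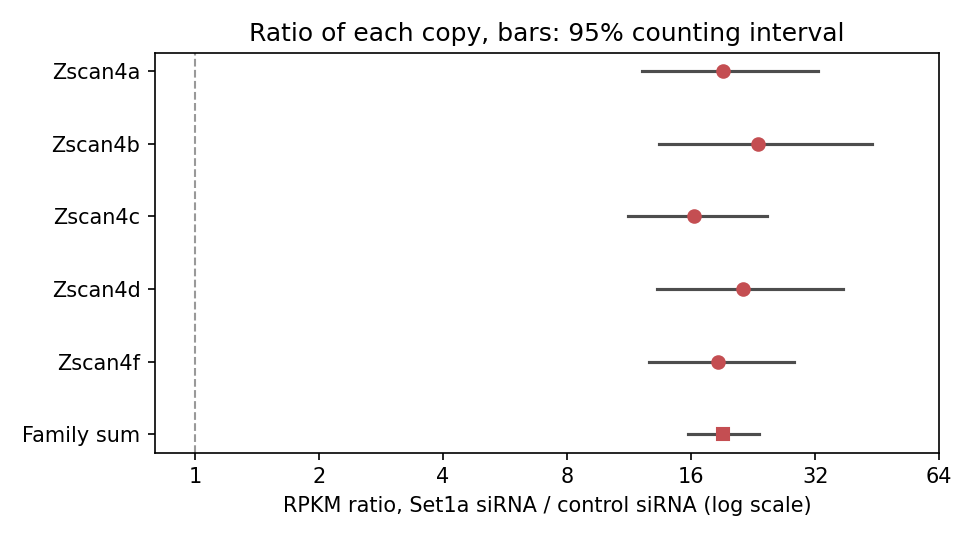
Ratio of RPKM, Set1a siRNA over control siRNA (horizontal axis, log scale), for each Zscan4 gene and for the sum of all 5, with bars for the 95% counting interval from recovered reads and a dashed line at 1. The points lie between 16.3 and 23.2, and the interval of each gene covers the points of the others.

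Summed over the family, the level was 7.71 RPKM in the control library and 147.6 RPKM in the knockdown library. The ratio of these sums was 19.1, and that of the 106 and 1948 summed reads, each set against its depth, was also 19.1 (15.7 to 23.4). Reads of the family made 0.00159% of the control library and 0.0304% of the knockdown library. The sum without any 1 copy had a ratio of 18.5 to 20.1, a range that the ratios of the single copies fix. If a read that matches several copies was counted at each of them, the sum exceeds the true number of molecules and its interval is too narrow. In RNA from a whole culture, more cells with Zscan4 RNA and more Zscan4 RNA per cell cannot be told apart.

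The order of the copies was Zscan4f, Zscan4c, Zscan4a, Zscan4d and Zscan4b in the control library. No neighbours in that order differed beyond counting error, the widest step being Zscan4c over Zscan4a at 1.57 times the level (0.861 to 2.97). In the knockdown library the order was Zscan4f, Zscan4c, Zscan4b, Zscan4d and Zscan4a. There Zscan4f stood 1.28 times above Zscan4c (1.12 to 1.46) and Zscan4c 1.25 times above Zscan4b (1.08 to 1.45), while the steps from Zscan4b to Zscan4d and from Zscan4d to Zscan4a had intervals that included 1. These intervals also cover counting error only and do not cover reads placed at another copy.

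The make-up of the family was similar in both libraries. Of the family's control reads, Zscan4c had 28.3% (19.98 to 37.9, exact binomial interval) and Zscan4f 25.5% (17.5 to 34.9). Zscan4a had 17.9%, Zscan4d 16.04% and Zscan4b 12.3%. After knockdown, Zscan4f had 24.8% (22.9 to 26.8) and Zscan4c 24.1% (22.2 to 26.1), and Zscan4a had 18.1%, Zscan4d 18.1% and Zscan4b 14.9%. Each share in the knockdown library fell inside the interval of the same copy in the control, so no shift between copies was detectable at this depth. Zscan4d, the copy known from the embryo, was not the leading copy in either library.

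**Figure D3:**
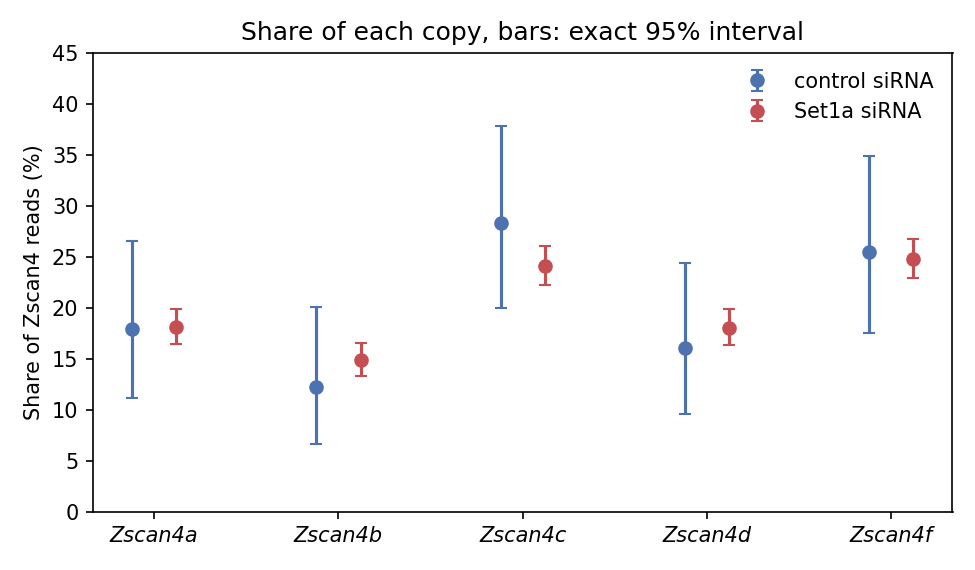
Share of the family's reads assigned to each Zscan4 gene (vertical axis, percent) in the control library, of 106 reads, and the knockdown library, of 1948 reads, with exact 95% binomial intervals as bars. Every knockdown point falls inside the control interval of its gene.

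Genes beside the cluster, as far as they had reads, showed no difference of this kind. In the RefSeq gene order, the 10 listed genes on each side of the cluster and the 1 listed gene inside it, Mir297-1, were examined. Of these 21 genes, 20 were listed at 0 in both libraries, among them all 18 genes of vomeronasal receptors, the pheromone receptors of the nose, and Nlrp4b. The remaining gene, Zik1, which encodes a zinc finger protein, was at 4.19 RPKM in the control library and 5.09 RPKM in the knockdown library, a ratio of 1.21 (0.944 to 1.57). On the far side of the cluster the first genes above 1 RPKM, Zfp551 and Zfp606, lay beyond 13 listed genes; they were picked with their values in view. Zfp551 had 1.87 RPKM in the control and 1.27 RPKM after knockdown, with a ratio of 0.679 (0.374 to 1.22), and Zfp606 had 3.14 and 2.99 RPKM, with a ratio of 0.953 (0.710 to 1.28). Each of the 3 neighbours with reads thus had an interval that included 1. Zscan4e and the pseudogenes Zscan4-ps1, Zscan4-ps2 and Zscan4-ps3 belong to the same cluster. They were not among the listed genes, so no level can be given for them. Whether their reads were counted at the 5 listed copies was not tested.

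**Figure D4:**
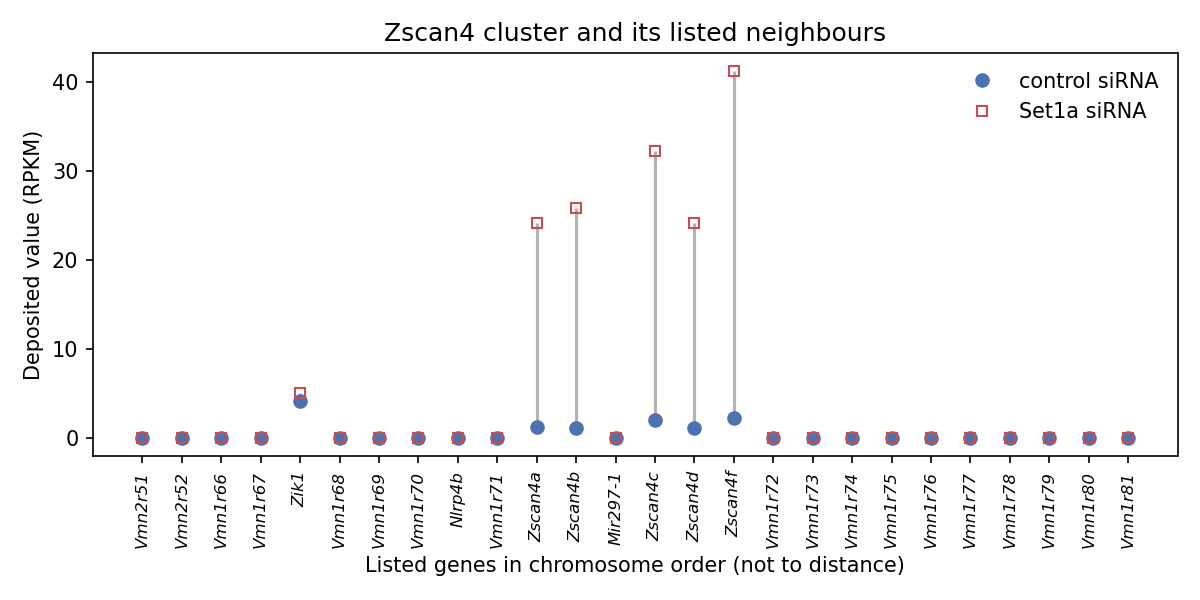
Deposited values (RPKM, vertical axis) of the listed genes around the Zscan4 cluster in chromosome order (horizontal axis, not to distance), with filled circles for control siRNA and open squares for Set1a siRNA (knockdown), joined by grey lines. Apart from the 5 Zscan4 genes, only Zik1, at 4.19 and 5.09 RPKM, is above 0.

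To place the copies among all genes, a log2 fold was formed after adding 1 RPKM to each value, which understates changes of low genes. Of 11786 genes whose mean reached 1 RPKM, 90 passed 2-fold upwards in the knockdown library, or 0.764%, and 48 passed it downwards, or 0.407%, which is 1.17% in all. With transcripts under 200 nucleotides or of unknown length left out, 56 of 11503 genes passed it upwards, or 0.487%, and 12 downwards, or 0.104%. All 5 Zscan4 genes were among the higher ones, as their choice fixed. Their log2 folds ran from 3.47 for Zscan4a to 3.71 for Zscan4f, against a median of 0.0066 over all genes. They held the second to sixth places, behind Mir1893, a microRNA gene with a log2 fold of 3.82 that rests on 0 and 7 reads.

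**Figure D5:**
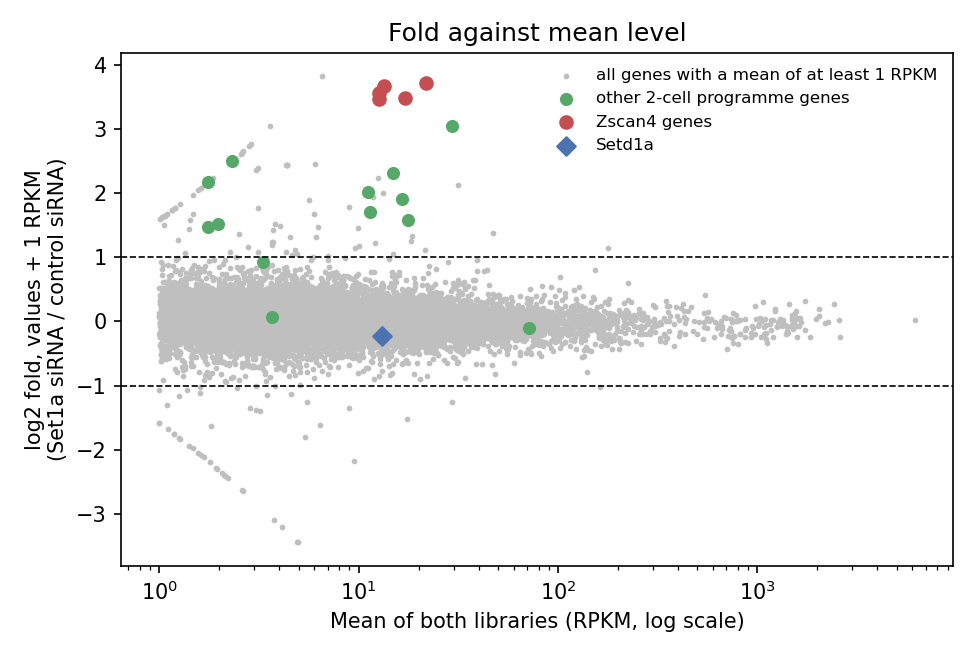
log2 fold of values with 1 RPKM added (vertical axis) against the mean of both libraries (RPKM, log scale) for 11786 genes, with the Zscan4 genes, the other measured 2-cell programme genes and Setd1a in colour and dashed lines at 2-fold. The Zscan4 genes lie between 3.47 and 3.71, above every other gene with a mean of at least 10 RPKM.

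The genes with the most similar difference, taken as the 8 other genes with the highest log2 fold and a transcript of at least 200 nucleotides, came mostly from other multicopy families. Over 2 libraries, likeness can only mean a similar fold. Gm4340 was at 5.52 RPKM in the control library and 53.0 RPKM in the knockdown library, a ratio of 9.60 (7.10 to 13.4), below the ratio of every Zscan4 copy. Usp17lb, a deubiquitinase gene, was listed at 0 in the control and had 42 reads after knockdown (lower limit of the ratio 11.3, from the exact interval). Gm4301, Gm4302, Gm4303, Gm4305, Gm4307 and Gm4312 had 2 or 4 control reads and 34 to 47 reads after knockdown. Gm4303, Gm4305 and Gm4307 had exactly the same values in both libraries, 0.660 and 8.04 RPKM. The ratios of these 6 genes ran from 12.2 (4.46 to 46.7) for Gm4303 to 18.1 (4.67 to 156) for Gm4312, and these intervals overlapped those of the Zscan4 copies.

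Other genes of the 2-cell programme were examined as a list of 37, of which 30 were listed, 13 had a mean of at least 1 RPKM and 10 of these were at least 2-fold higher, with 0 lower. The share was 76.9%, beside 0.764% of all genes, and the median log2 fold of the 13 was 1.71. The list was made with earlier results of these data known, so the share and the median only describe it. For 4 of the 13, Usp17lb, Usp17lc, Usp17ld and Gm428, the mean reached 1 RPKM only through the knockdown value, so they had to be higher. Both the share and the median include these 4. Of the Eif1a-like genes, Gm5662 had a ratio of 5.89 (4.38 to 8.03), Gm8300 of 4.82 (3.52 to 6.74), Gm2016 of 4.20 (3.25 to 5.48), BB287469 of 3.75 (2.81 to 5.12) and Gm4027 of 3.22 (2.57 to 4.05). All 5 of these ratios, and their intervals, lay below the interval of the lowest Zscan4 copy. Usp17lc had a ratio of 6.39 (2.68 to 18.6) and Usp17ld of 6.63 (2.84 to 19.5). Gm428 was listed at 0 in the control and had 30 reads after knockdown. The other measured members stayed under the 2-fold rule. Their log2 folds were 0.92 for Usp17la, 0.065 for Sp110 and -0.11 for Eif1a. Eif1a itself had a ratio of 0.926 (0.858 to 0.999), from 74.6 RPKM in the control library to 69.1 RPKM in the knockdown library.

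Some genes closely tied to Zscan4 were near or at 0. Duxf3, which encodes the factor DUX that is known to switch on the 2-cell programme, had 0 reads in the control library and 2 in the knockdown library, under the 3 reads that a count of 0 allows. Tcstv1 and Tcstv3, genes expressed with Zscan4 in the 2-cell embryo, and AF067063 were listed at 0 in both libraries. How reads with multiple matches were counted is not given, so whether these 0 values mean absent RNA was not tested. Zfp352 had 6 and 11 reads, a ratio of 1.90 (0.646 to 6.27), and Tmem92 had 0 and 16 reads (lower limit of the ratio 4.01). Of the 17 listed members under the floor, 13 had a higher value after knockdown, 1 a lower one and 3 were listed at 0 in both libraries. Over all 10635 genes under the floor, 3280 were higher, 1972 lower and 5383 at 0 in both. Besides Tmem92, intervals above 1 were found for Pramel7, with 1 and 15 reads (2.40 to 656), for Tdpoz4, with 1 and 12 reads (1.84 to 533), and for Pramel6 and Tdpoz5, each with 0 and 6 reads (lower limit 1.22). These 5 genes were picked with their values in view. Differences for Duxf3 and Zfp352 were not detectable at this depth.

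Genes with the same kind of protein domain were examined next. Of 35 genes for SCAN-domain proteins other than Zscan4, 33 were listed and 28 reached a mean of 1 RPKM. Among the 28, 0 were 2-fold higher or lower, where 1.17% of all genes were, so this count lies near the background. Of the same 28, 6 were above and 22 below their control value, and their median log2 fold was -0.11, against 0.0066 over all genes, of which 6033 were above and 5753 below. The members farthest from 0 were Zscan25 at -0.56, Zscan22 at 0.54, Zscan2 at -0.50 and Zfp263 at -0.48. Zscan10, a factor known from pluripotent cells, was at 32.8 RPKM in the control library and 35.9 RPKM in the knockdown library, and was picked with its values in view.

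Genes reported to control Zscan4 or the 2-cell-like state were examined as a list of 23 activators and repressors. Of these, 22 were measured and 0 passed 2-fold, near the 1.17% of all genes, and their median log2 fold was -0.0092. The 4 farthest from 0 were Pcgf6, a subunit of a Polycomb complex, at -0.33, Chaf1a, the large subunit of the chromatin assembly factor, at 0.27, Zmym2 at -0.23 and Mga, a partner of PCGF6, at -0.23. Pcgf6 was at 21.8 RPKM in the control library and 17.1 RPKM in the knockdown library, a ratio of 0.784 (0.659 to 0.931). Chaf1a had a ratio of 1.21 (1.11 to 1.32).

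Zscan4 protein is known to gather at telomeres with proteins of meiotic recombination, and 21 genes of telomeres and of such foci were examined. Of these, 20 were measured, 0 passed 2-fold, near the 1.17% of all genes, 7 were above and 13 below their control value, beside 6033 and 5753 of all genes, and the median log2 fold was -0.03. Smc1b, a meiotic cohesin subunit, was at 5.09 RPKM in the control library and 3.20 RPKM in the knockdown library, a ratio of 0.628 (0.473 to 0.833). Rad50, part of a complex that senses DNA breaks, had a log2 fold of -0.38, the telomere-binding gene Pot1a of -0.37 and the helicase gene Rtel1 of -0.35. The highest log2 fold was 0.35, for Acd, and 1 member was listed at 0 in both libraries.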

How the data were processed

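Transcript levels of 2 mouse CGR8 libraries, 1 per siRNA group taken from the transfection label, were analysed. The deposited tables hold 28430 RefSeq transcripts with 1 value each and no header. RPKM was inferred as the unit of the deposited values: low values, once multiplied by transcript length, fall on multiples of 1 read. The submitters' processing notes name build mm9 with SAMtools 0.1.16, TopHat2 2.0.12, TopHat and CASAVA, without their roles. How reads were counted, including strand and multiple matches, is not given in the sources used here.

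RefSeq GRCm38.p6 and GENCODE M21 gave symbols for 27957 transcripts (98.3%). Their build is not mm9, so they served for names, gene order, lengths and sequences, and printed coordinates are those of GRCm38.p6. Depth was the read total at which low values came closest to whole reads. Of transcripts with 1 to 5 reads, 74.7% (control) and 73.9% (knockdown) were within 0.1 of a whole read, against 20% at random. The authors' own lengths may differ from those used, which makes read numbers approximate. A gene with several transcripts took the values of the one that had most reads. Fold rules used 1 RPKM added to each value and a mean of at least 1 RPKM. Intervals are exact Clopper-Pearson or Poisson ones at 95% and cover counting error only.

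The members and lists were chosen with earlier results of these data known. All listed Zscan4 genes and all measured genes of the 2-cell programme list were named. In the SCAN-domain, regulator and telomere lists, the genes past 2-fold or else the 4 farthest from 0 were named. Of the cell markers, Klf4, Pou5f1 and Sox2 were named for their level or fold. Eomes and Pax6 were named as the 2 measured markers of other cell types, and Setd1a as the target. The 8 most similar other genes and measured neighbours were named too. Any other gene named was picked with its values in view, also where this is not marked. In simulated reads for 11661 genes of this comparison, the 2-fold rule found 100% of 100 genes raised 4-fold. It found 85% of 100 genes lowered to a fold of 0.25. Of the intervals for genes with more than a few reads, 95.6% held the true ratio, where counting error alone was simulated. Reads shared between copies, wrong lengths and variation between libraries were not simulated. Alternatives varied the pseudocount, floor, scaling, transcript length and the copies summed. Python 3.11.15, scipy 1.17.1 and biopython 1.88 were used.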

Additional observations from a re-analysis of the deposited data

Results flagged for a closer look

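Of 473 transcripts without a gene symbol, which entered no comparison, 246 reached 1 RPKM on average, of which 5 passed 2-fold upwards after knockdown and 0 downwards. The highest was at 1.29 RPKM in the control library and 26.5 RPKM in the knockdown library, a ratio of 20.5, and it is given here because it lies outside the named genes and exceeds its own control. Its values lay inside the ranges of the Zscan4 copies in both libraries. Its identity and its sequence were not analysed here.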

How the results depend on the processing

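The ratio of the family sum, 19.1, stayed between 18.5 and 20.1 in 9 of 10 alternatives, which were 2 scalings, a pseudocount of 0.1, summed reads and the sum without each copy, and was 12.01 with a pseudocount of 5, by its construction. The ratios of single copies stayed between 15.9 and 23.2 under both scalings. All 5 Zscan4 genes were at least 2-fold higher in each setting run for the gene count, with log2 folds of 2.22 to 2.68 at a pseudocount of 5 and 3.96 to 4.42 at 0.1. The number of genes at least 2-fold higher, 90, was 177 with a pseudocount of 0.1, 37 with a pseudocount of 5, 34 with a floor of 5 RPKM and 56 with transcripts under 200 nucleotides left out, and the number lower, 48, was 89, 10, 8 and 12 in these settings. Without a floor, 131 were higher and 77 lower. Of the other 2-cell programme genes, 10 were higher, and 6 with a pseudocount of 5 or a floor of 5 RPKM. As shares of summed RPKM in place of reads, the copies in the knockdown library made 16.4% (Zscan4a), 17.5% (Zscan4b), 21.8% (Zscan4c), 16.4% (Zscan4d) and 27.9% (Zscan4f), since RPKM divides by transcript length. No further Zscan4 symbol was listed, so a wider sum was not run. No paired analysis was possible because 1 library stood for each group. Depth limits the control values most, at 13 to 30 reads a copy.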
